A study of Homo sapiens with 2 samples.

Results

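Follistatin, the activin subunits it binds, the activin receptors and the SMAD proteins below them were described in a lung cancer line and in its drug-resistant subline. The 10 genes, out of 18377 measured, were FST, FSTL1, FSTL3, INHBA, INHBB, ACVR1B, ACVR2A, ACVR2B, SMAD2 and SMAD3. They were chosen by name, from earlier results of this same comparison in which the low FST value of the resistant cells had been seen, so their differences are a description and support nothing by themselves. EBC1-R cells came from EBC1 cells that survived rising concentrations of a MET kinase inhibitor, named in the labels as PHA-665752, and they were kept in medium with 3 µM of the inhibitor. EBC1 cells, labelled wild type, are the parental line, a human squamous cell lung carcinoma line known for its dependence on an amplified MET gene. There was 1 array of EBC1-R and 1 of EBC1, hybridised with biotin-labelled cDNA made from 100 ng of total RNA, so no value has a replicate error and no difference was tested. The growth medium is given as either of a pair of media with 10% serum, without saying which line had which. Selection in the inhibitor, and continued growth in it, cannot be told apart in this design. The labels do not say whether EBC1-R is 1 clone or a mixed population.

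Activins are secreted dimers of the beta subunits encoded by INHBA and INHBB. An activin binds a type II receptor, ACVR2A or ACVR2B, which recruits and activates the type I receptor ACVR1B, and ACVR1B then phosphorylates SMAD2 and SMAD3, which enter the nucleus with SMAD4 and regulate transcription. Follistatin binds activin outside the cell and keeps it from its receptors, and FST is itself a known target of activin signalling, which makes it part of a feedback loop. In the lung, activin A, the dimer of INHBA subunits, is known for its part in inflammation and fibrosis.

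Of the 10 genes, FST was 7.14-fold lower and FSTL1 2.76-fold higher in EBC1-R, and the other 8 differed by less than 2-fold. The follistatin relative FSTL3 was 1.55-fold higher and the activin subunit gene INHBA 1.47-fold lower. INHBB, the 3 receptor genes and both SMAD genes lay within 1.27-fold. In all, 7 of the 10 were higher and 3 lower in EBC1-R, with a median difference of 0.17 log2 units. Over all 18377 genes, 43.3% were higher and 55.5% lower, with a median of -0.03. Being at least 2-fold different, as 2 of the 10 were, was true of 2.14% of all genes. Being at least 2-fold higher, as FSTL1 was, held for 1.26%, and at least 2-fold lower, as FST was, for 0.887%. A difference of at least 1.5-fold was seen in 3 of the 10 and in 7.57% of all genes. Nothing is read from these shares, since the genes were chosen on this contrast.

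Values are the deposited levels, taken as log2 intensities, and a difference is the level in EBC1-R minus that in EBC1. In place of a replicate error, the probe sets of the same gene give a measure of agreement within this pair of arrays. Over 374 genes that had several probe sets and passed the level filter given next, their differences varied with a pooled SD of 0.16 log2 units. That SD holds no variation between cultures. A level filter was set at 7.41, the median over genes of the higher of the 2 values, and 9189 genes reached it. In EBC1-R, 196 of these were higher and 153 lower by 2-fold or more. Among these 9189 genes, 95% of differences lay between -0.85 and 0.92. MET, the target of the inhibitor, stood at 13.21 in EBC1-R and 13.17 in EBC1. Of 9 measured epithelial marker genes, all were above the level filter on at least 1 array, and the largest differences were in the keratin genes KRT19 (11.88 in EBC1-R and 12.77 in EBC1) and KRT8 (12.01 in EBC1-R and 12.83 in EBC1). All 8 measured squamous marker genes, among them KRT5, KRT14, DSG3 and SOX2, were under it in both lines, between 5.06 and 6.97 in EBC1-R and between 4.85 and 7.26 in EBC1, so a squamous identity was not visible in these markers. The other 2 listed squamous markers, TP63 and KRT6A, had no value here, so the list is incomplete on this point.

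**Figure D1:**
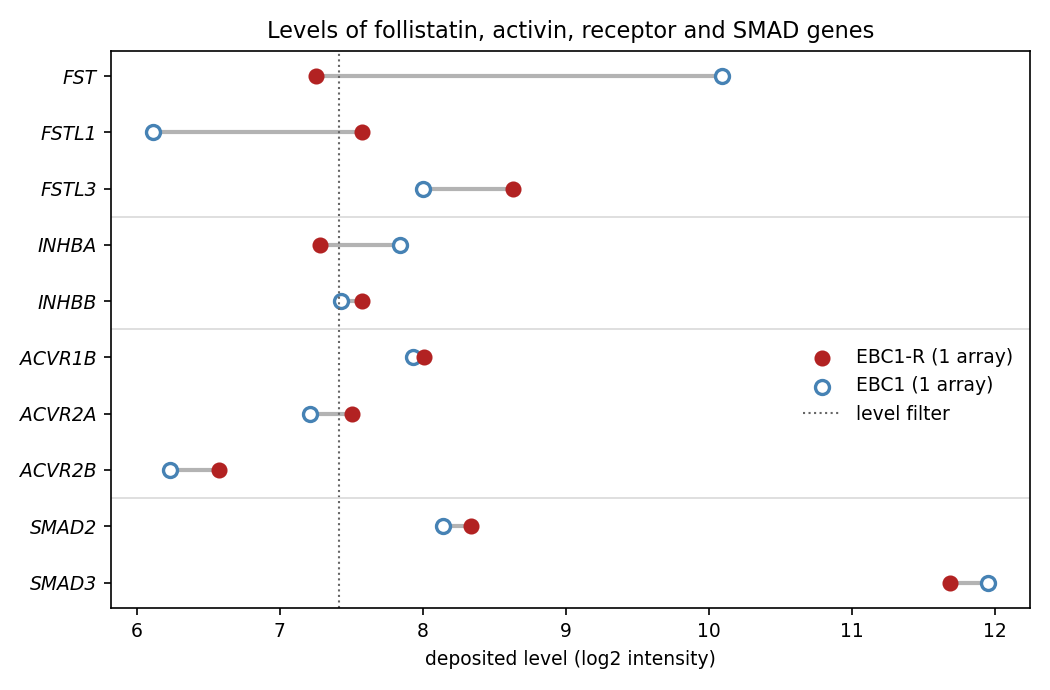
Deposited level (log2 intensity, horizontal axis) of each of the 10 genes in EBC1-R (filled points) and EBC1 (open points), 1 array each, grouped from top to bottom into follistatins, activin subunits, receptors and SMADs. FST shows the widest gap, with EBC1-R at 7.26 and EBC1 at 10.09, and FSTL1 the next, in the other direction. Levels of different genes come from different probes and are not comparable with each other.

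FST encodes follistatin, the high-affinity activin antagonist. Its level was 7.26 in EBC1-R and 10.09 in EBC1, a difference of -2.83 log2 units. On the linear scale this is an intensity of 153 in EBC1-R and of 1090 in EBC1. Only 1 gene in the whole table, CALB2 (named after its value was seen), had a larger decrease, and 0.109% of the genes above the level filter differed by as much as FST in either direction. FST passed the level filter through EBC1 alone. Because no detection call was used, its level in EBC1-R is not separated from background, and 7.14-fold may understate the change in transcript. The single FST probe set was annotated to 2 RefSeq mRNAs, so the transcripts of the long and the short follistatin forms were not told apart. With bulk RNA, fewer cells that express a gene and less RNA per cell cannot be told apart.

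FSTL1 encodes a secreted glycoprotein with a follistatin-like domain, which in mice is needed for lung development. Its level was 7.58 in EBC1-R and 6.12 in EBC1, a difference of 1.46. It ranked 83rd of the 18377 genes by increase, and 1.31% of the genes above the level filter differed by as much. FSTL1 passed that filter through EBC1-R alone. Its EBC1 value is not separated from background either. FSTL1 is abundant in fibroblasts, and the 10 fibroblast markers were examined beside it. Of these, 9 were under the level filter in both lines, including DCN, LUM and POSTN, which lay between 4.56 and 4.70 in EBC1-R and between 4.54 and 4.77 in EBC1. The exception was COL1A1, at 7.61 in EBC1-R and 7.64 in EBC1. Fibroblast marker differences ran from -0.09 to 0.15, and the summed linear intensity of the list was 659 in EBC1-R and 668 in EBC1. With 9 of the 10 markers under the filter, these differences and sums say little, and a fibroblast source of FSTL1 was not tested.

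FSTL3 encodes a follistatin-like protein that also binds and blocks activins. Its level was 8.63 in EBC1-R and 8.00 in EBC1, a difference of 0.63, and it was above the level filter on both arrays. A difference of this size or larger was seen in 10.7% of the genes above the filter. The activin antagonists FST and FSTL3 thus differed in opposite directions, and the deposited difference of FST minus that of FSTL3 was -3.47 log2 units. That value uses the EBC1-R level of FST, which is not separated from background.

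**Figure D2:**
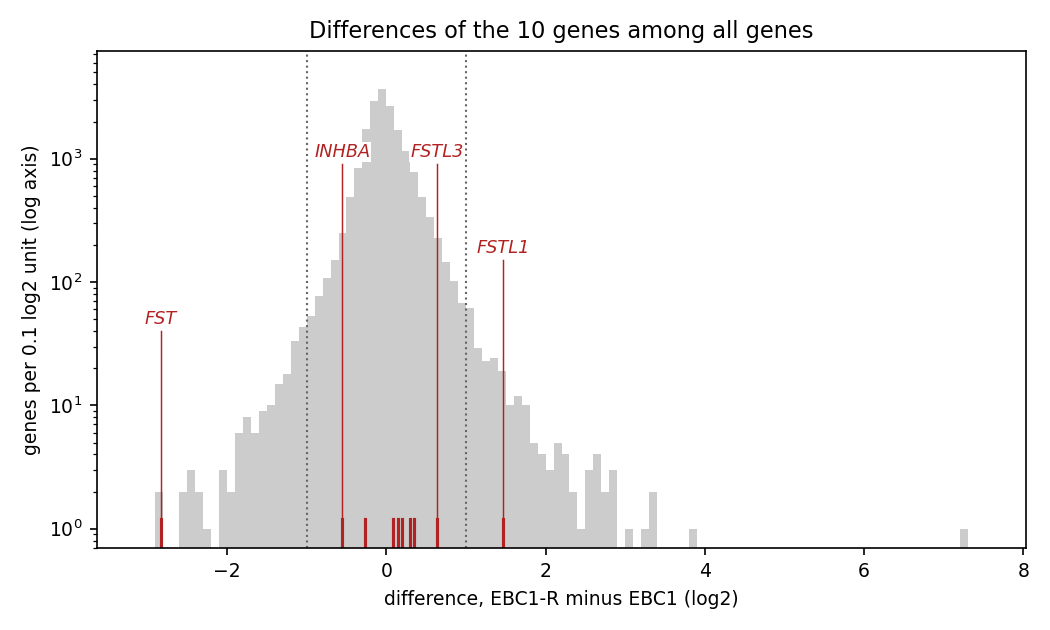
Distribution of the difference between EBC1-R and EBC1 (log2, horizontal axis) over all 18377 genes, in steps of 0.1 with a log vertical axis; red ticks mark the 10 genes and dotted lines 2-fold. FST, at -2.83, lies at the far low end, FSTL1, at 1.46, lies beyond 2-fold on the high side, and the others fall inside the dotted lines.

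The sequences just upstream of FST and FSTL1 are shown because these were the genes at least 2-fold different, in opposite directions. Each is the 250 bases before the annotated start, 5′ to 3′ on the strand of the gene, from RefSeq (GRCh38.p14). The FST stretch lies at chr5:53480379-53480628 on the plus strand and the FSTL1 stretch at chr3:120450993-120451242 on the minus strand. Capitals mark a match to TGANTCA, a loose form of the AP-1 motif that allows any base at its centre, where the AP-1 consensus has C or G.
FST: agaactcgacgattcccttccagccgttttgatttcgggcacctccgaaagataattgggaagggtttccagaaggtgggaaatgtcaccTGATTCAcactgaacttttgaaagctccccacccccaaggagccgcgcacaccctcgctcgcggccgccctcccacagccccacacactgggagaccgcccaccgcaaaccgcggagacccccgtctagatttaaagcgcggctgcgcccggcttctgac
FSTL1: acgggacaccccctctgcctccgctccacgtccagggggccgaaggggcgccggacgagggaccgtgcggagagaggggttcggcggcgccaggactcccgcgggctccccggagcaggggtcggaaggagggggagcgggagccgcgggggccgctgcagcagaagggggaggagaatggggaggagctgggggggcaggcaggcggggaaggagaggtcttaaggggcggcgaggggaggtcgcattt
Motifs were searched on both strands, and none overlapped another. The FST stretch held TGATTCA, which is not the AP-1 consensus and starts 160 bases before the gene start, and the FSTL1 stretch held no match. The same motif lay in 2 of the 16 stretches that RefSeq gives for the 10 genes, 1 of FST and 1 of SMAD3 (TGAGTCA), and in 6.57% of 35116 such stretches of all genes. The palindromic SMAD box GTCTAGAC (in 0.182% of all stretches), the SMAD element AGCCAGACA (0.231%) and the ETS motif CCGGAAGT (3.42%) had no match in any of the 16. G and C made up 60.0% of the FST stretch and 74.4% of the FSTL1 stretch, where the median over all stretches was 58.0%. These matches describe letters in a window and say nothing of binding.

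Of the chromosomal neighbours of FST and FSTL1, 1 was at least 2-fold different. Neighbours were taken, after the values were seen, as the 4 measured genes on either side in RefSeq order. Beside FST, MOCS2 stood at 9.90 in EBC1-R and 10.26 in EBC1, and NDUFS4, on the other side, at 7.32 in EBC1-R and 7.31 in EBC1. ITGA2, which encodes a collagen-binding integrin subunit and is the next gene past MOCS2, was 2.09-fold lower, with 11.46 in EBC1-R and 12.52 in EBC1. The 8 neighbours of FST differed by -1.06 to 0.27, with a median of -0.06. Of these, ISL1, PELO, NDUFS4, ARL15 and HSPB3 were under the level filter in both lines, so their small differences say little. Beside FSTL1, LRRC58 differed by -0.42 and NDUFB4 by 0.09, and its 8 neighbours ran from -0.42 to 0.41. POPDC2, CFAP91 and HGD among them were under the filter. Around all 10 genes, ITGA2 was the only 1 of 80 such neighbours that was at least 2-fold different, beside 2.14% of all genes. Many of the 80 were under the level filter in both lines, not only those beside FST and FSTL1.

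**Figure D3:**
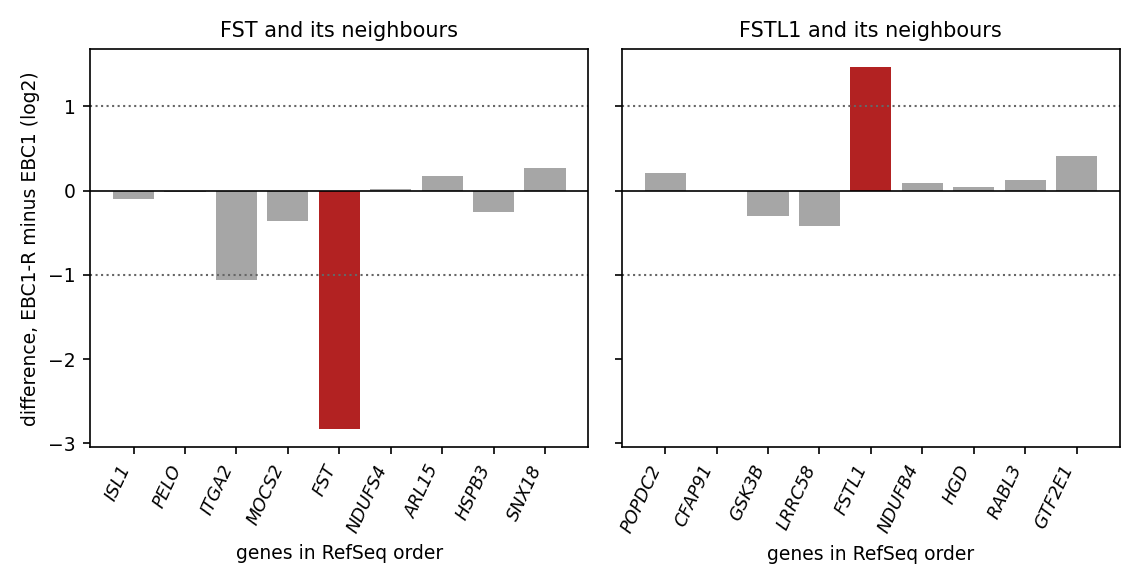
Difference between EBC1-R and EBC1 (log2, vertical axis) for FST (left) and FSTL1 (right), in red, and for the 4 measured genes on either side of each in RefSeq order, in grey; dotted lines mark 2-fold. Of the neighbours, ITGA2, at -1.06, alone reaches a dotted line.

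The activin subunit genes differed little and in opposite directions. INHBA, whose product forms activin A, stood at 7.29 in EBC1-R and 7.84 in EBC1, a difference of -0.55, and passed the level filter through EBC1 alone. Of the genes above the filter, 13.9% differed by as much. INHBB, whose product forms activin B, stood at 7.58 in EBC1-R and 7.43 in EBC1, a difference of 0.15, which is smaller than the SD between probe sets of the same gene. INHBA minus INHBB was -0.70. Both the antagonist FST and the ligand subunit INHBA were lower in EBC1-R, and FST by more: the deposited difference of FST minus that of INHBA was -2.28. Both genes were under the level filter in EBC1-R, so this is a difference between signals and no exact ratio of transcripts. FSTL3 minus INHBA was 1.19. The other subunit genes of the family were all under the level filter in both lines. Among them INHA, which encodes the alpha subunit that turns an activin into an inhibin, was at 6.18 in EBC1-R and 6.45 in EBC1. INHBE was at 6.16 in EBC1-R and 6.33 in EBC1.

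The differences of the receptor genes were small, from 0.08 to 0.34. ACVR1B, the type I activin receptor also called ALK4, was at 8.01 in EBC1-R and 7.93 in EBC1, a difference of 0.08 that is smaller than the SD between probe sets of the same gene and that 80.2% of the genes above the filter reached or passed. ACVR2A, a type II receptor, was at 7.51 in EBC1-R and 7.21 in EBC1, a difference of 0.30, and passed the filter through EBC1-R alone. ACVR2B, the other type II receptor, was at 6.57 in EBC1-R and 6.23 in EBC1, a difference of 0.34, under the filter in both lines. A difference at least as large as that of ACVR2A was found in 36.2% of the genes above the filter and in 24.8% of all genes. For ACVR2B, under the filter, the share over all genes was 20.4%.

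The SMAD genes that carry the activin signal differed by less than 1.5-fold, in opposite directions. SMAD2 was at 8.34 in EBC1-R and 8.14 in EBC1, a difference of 0.19. It was the only gene of the 10 with 2 probe sets, and these differed by 0.18 and 0.21. SMAD3, which unlike the main form of SMAD2 binds DNA directly, was at 11.69 in EBC1-R and 11.95 in EBC1, a difference of -0.27 that 40.7% of the genes above the filter reached or passed. These are transcript levels, and the phosphorylation by which the receptors activate SMAD2 and SMAD3 was not measured.

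Around the 10 genes, 123 further genes of activin and TGF-beta family signalling were listed in 11 groups, of which 115 had a value. Probe sets naming several genes covered 4 of the missing 8, and the others were not analysed here. Of the 115, 49 were higher and 64 lower in EBC1-R, with a median difference of -0.04. A difference of 2-fold or more was seen in 7 that were higher and in 3 that were lower, together 8.70% of the 115, beside 2.14% of all genes (1.26% higher and 0.887% lower). The lists were written with earlier results of these data known and several of the genes that differ had been seen before, so nothing is read from these shares.

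Among the other type I and type II receptors of the TGF-beta family, TGFBR1, the type I receptor of TGF-beta, was 2.25-fold higher, at 8.79 in EBC1-R and 7.61 in EBC1. It was the only 1 of 8 measured receptor genes at least 2-fold different, beside 2.14% of all genes, and the group's median was -0.01. Over the 5 of them above the level filter the median was 0.56, and TGFBR1 passed that filter on both arrays. TGFB2, a TGF-beta ligand, was 2.08-fold higher, at 10.38 in EBC1-R and 9.32 in EBC1. LTBP3, which encodes a protein that holds latent TGF-beta in the matrix, was 2.38-fold lower, at 8.30 in EBC1-R and 9.55 in EBC1. The 8 genes of that ligand and latency group had a median of -0.11. BMP4, which signals through type II receptors that include those of activin, was at 9.20 in EBC1-R and 10.39 in EBC1. It was the only 1 of 13 other ligands at least 2-fold different, beside 2.14% of all genes. Of the 13, 9 were under the level filter in both lines, so their small differences say little.

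None of the other secreted antagonists of the family was 2-fold different, beside 2.14% of all genes. Of 12 measured, which include NOG, WFIKKN1, CHRD and GREM1, 4 were higher and 7 lower, and their median was -0.03. The largest differences were in NOG, the BMP antagonist noggin, at 8.35 in EBC1-R and 8.71 in EBC1, and in WFIKKN2, at 6.48 in EBC1-R and 6.84 in EBC1. Only 2 of the 12 were above the level filter. Of 10 further proteins with a follistatin domain, none differed by 2-fold, beside 2.14% of all genes. Of these 10, 8 were under the level filter in both lines, so their small differences say little. SPOCK1 came closest, at 6.55 in EBC1-R and 7.50 in EBC1, and AGRN was at 9.38 in EBC1-R and 9.09 in EBC1. Among co-receptors, BAMBI, a pseudoreceptor that dampens signalling, was at 6.70 in EBC1-R and 6.01 in EBC1, under the filter, and ENG was at 9.11 in EBC1-R and 9.68 in EBC1. All 4 convertase genes, whose products cut pro-activin and related precursors, were lower by small amounts, beside 55.5% of all genes that were lower. Of the 4, 2 were under the level filter in both lines. FURIN was at 7.53 in EBC1-R and 7.93 in EBC1, and PCSK7 at 8.62 in EBC1-R and 8.82 in EBC1.

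Downstream, none of 21 other SMADs and SMAD regulators was 2-fold different, beside 2.14% of all genes. Of the 21, 10 were higher and 11 lower, with a median of -0.01, and 5 were under the level filter in both lines. SKI, a repressor of SMAD-driven transcription, was at 9.09 in EBC1-R and 9.89 in EBC1. SMURF2, a ubiquitin ligase for receptors and SMADs, was at 10.24 in EBC1-R and 10.93 in EBC1. Genes listed here as targets of SMAD2 and SMAD3, FST apart, were split evenly, with 14 of 28 higher and 14 lower and a median of 0.03. Over all genes, 43.3% were higher and 55.5% lower, with a median of -0.03. Of the 28, 9 were under the level filter in both lines. The feedback genes SMAD7 (6.47 in EBC1-R and 6.36 in EBC1), SKIL (8.89 in EBC1-R and 8.56 in EBC1) and PMEPA1 (9.62 in EBC1-R and 9.72 in EBC1), named after their values were seen, differed by 0.10, 0.32 and -0.10. SMAD7 was under the level filter in both lines. BAMBI, also in that list and under the filter, differed by 0.69. Of the 28 target genes, 4 were at least 2-fold different, beside 2.14% of all genes. They were HMOX1 (11.65 in EBC1-R and 8.37 in EBC1), IGFBP3 (10.70 in EBC1-R and 8.09 in EBC1) and THBS1 (12.54 in EBC1-R and 10.95 in EBC1), all higher, and CDKN1A (8.94 in EBC1-R and 10.03 in EBC1), which was lower. These are also induced by other pathways, HMOX1 by the oxidative stress factor NRF2 and CDKN1A by p53.

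**Figure D4:**
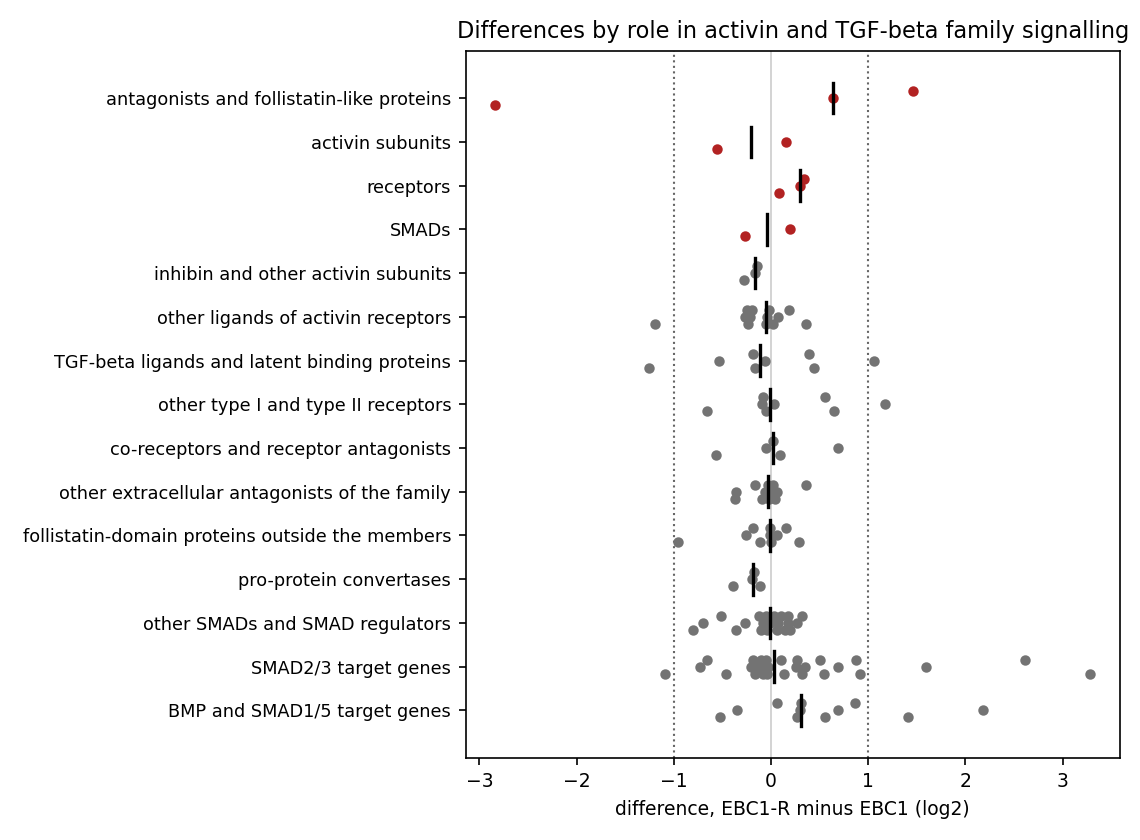
Difference between EBC1-R and EBC1 (log2, horizontal axis) of each measured gene by its role, with the 10 genes in red, other genes of the pathway in grey, black bars at group medians and dotted lines at 2-fold. FST lies apart at -2.83 on the low side, and the group medians lie between -0.20 and 0.63.

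The genes whose pair of values lay nearest to those of FST, by Euclidean distance over the 2 arrays, were ENPP1 (7.30 in EBC1-R and 9.82 in EBC1, distance 0.27), MIRLET7A2 (7.23 in EBC1-R and 9.73 in EBC1, distance 0.36) and ETV1 (7.21 in EBC1-R and 9.73 in EBC1, distance 0.36). Nearest to FSTL1 were IFIT2 (7.56 in EBC1-R and 6.21 in EBC1, distance 0.10), IFIT3 (7.52 in EBC1-R and 6.22 in EBC1, distance 0.12) and MMP7 (7.72 in EBC1-R and 5.96 in EBC1, distance 0.20). With 2 arrays this likeness is a closeness of 2 numbers read from different probes.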

How the data were processed

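The values deposited by the authors, 1 for each probe set on each array, were read as log2 intensities because they span 4.22 to 14.2 in EBC1-R and 4.21 to 14.1 in EBC1. Their log base, background correction, summarization, scaling and tools were not given in the sources used here. Per the labels' extraction protocol another array was used, not the whole-transcript gene array whose annotation the 28869 deposited probe sets match. The column medians were 6.71 in EBC1-R and 6.73 in EBC1, with gaps of up to 0.17 between values of equal rank. Whether the arrays were scaled to each other was not stated; such scaling would remove a change shared by most genes.

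Probe sets with 1 gene symbol (19310) were averaged per gene; 1752 named several genes and 7807 none. Symbols were checked by gene identifier against RefSeq (19279 found). With 1 array per group no test was possible; the number of arrays limits the precision. Alternatives were quantile normalization, median subtraction, removal of a lowess trend (span 0.2), a pseudocount of 16, the brightest probe set, probe sets with several symbols added, thresholds of 1.5-fold and 3-fold, and the level filter. Named were the 10 genes, in each further list the genes at least 2-fold different or else the 2 most different, the 3 nearest genes of FST and FSTL1,  and the reference points MET and ABCB1 (12.65 in EBC1-R and 5.37 in EBC1). Genes outside the rule, such as neighbours and further examples in the lists, were chosen after their values were seen. The 10 genes and all lists were chosen with earlier results of these data known. Analyses used Python 3.11.15, pandas 2.3.3 and statsmodels 0.14.6, and the code was tested on simulated data.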

Additional observations from a re-analysis of the deposited data

How the results depend on the processing

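Under 6 alternatives of scaling, pseudocount and probe set choice, each of the 10 genes kept its direction, in part by construction. A pseudocount cannot change a direction, and 9 of the 10 genes have 1 probe set, so choosing the brightest changes nothing. Adding probe sets with several symbols left all 10 differences unchanged. FST ranged from -2.84 to -2.71 and FSTL1 from 1.28 to 1.52, with the lowest FSTL1 difference under the pseudocount of 16, which shrinks differences of low intensities by construction. FSTL3 ranged from 0.60 to 0.65 and INHBA from -0.57 to -0.51. At a 3-fold threshold 1 of the 10 genes counted in place of 2. The count of further pathway genes was 21 at 1.5-fold and 4 at 3-fold, against 10 at 2-fold, and that of cell type markers 3 at 1.5-fold, against none of 46 at 2-fold. Over all genes above the level filter it was 1151 at 1.5-fold and 94 at 3-fold, against 349. With members above the level filter alone, medians moved to -0.21 for other ligands of activin receptors, 0.56 for other receptors, -0.57 for co-receptors (1 gene), -0.33 for follistatin-domain proteins and 0.11 for leukocyte markers, fewer genes entering each by construction. Of 205 recomputed values, the other 193 moved by less than the SD between probe sets or, for counts, by no more than 1.5 times. Some of these were fixed by construction. No paired analysis was possible because each group has 1 array. No detection calls were used, so levels under the level filter, such as FST in EBC1-R and FSTL1 in EBC1, are not separated from an unknown background.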

Other observations

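Of 11 genes that BMP receptors induce through SMAD1 and SMAD5, 9 were higher in EBC1-R, and the median was 0.30. Over all genes, 43.3% were higher, with a median of -0.03. Of the 11, 5 were under the level filter in both lines, SMAD6, BAMBI, DLX5 and ATOH8 besides ID2. ID3, an inhibitor of basic helix-loop-helix factors, was at 8.18 in EBC1-R and 6.00 in EBC1, and its relative ID2 at 6.89 in EBC1-R and 5.48 in EBC1, with ID2 under the level filter. ID1 stood at 10.63 in EBC1-R and 9.76 in EBC1. The list was written with the ID3 and ID2 values already known and is no independent evidence.

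Of 9 measured leukocyte markers, 7 were under the level filter in both lines, among them PTPRC at 4.65 in EBC1-R and 4.56 in EBC1. CD68 was at 11.45 in EBC1-R and 11.04 in EBC1 and LCP1, also known to be expressed in carcinoma lines, at 11.84 in EBC1-R and 12.03 in EBC1. All 10 endothelial markers were under the filter in both lines, with differences from -0.25 to 0.17.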
